A study of Mus musculus with 6 samples.

Results

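Brown adipocyte thermogenic genes are described here in aortas of ApoE−/− and B6 mice. The genes were chosen by symbol as Ucp1, Cidea, Cox8b, Elovl3, Dio2, Ppargc1a, Prdm16, Cpt1b, Otop1 and Zic1, which makes 10 genes. The annotation of the array gave 1 of these symbols for 20 of 45101 probe sets. Of these, 19 carried a single symbol and stood for 9 genes. The remaining probe set is annotated jointly to Gm44502, Cpt1b and Chkb, so Cpt1b has only a shared value. The study compared the antioxidant vitamin E with captopril, an inhibitor of angiotensin-converting enzyme, by plaque area and aortic gene expression in atherosclerosis-prone mice. The VitE group consisted of ApoE−/− mice that received 2000 IU vitamin E per kg of diet for 7 months. The untreated group consisted of ApoE−/− mice without treatment, and the B6 group of non-transgenic C57BL/6J mice. All ApoE−/− mice were on the C57BL/6J background and lack apolipoprotein E in every tissue. All mice were 32 to 34 weeks old and ate chow with 7% fat and 0.15% cholesterol. Each group had 2 Affymetrix MG430 2.0 arrays, each array with pooled RNA of 3 aortas, and the labels state that the aortas were dissected free of fat. The spread between single mice was therefore not measured.

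Brown adipocytes burn fatty acids to make heat. Their mitochondria hold the uncoupling protein UCP1, which lets protons return across the inner membrane without making ATP. Noradrenaline from sympathetic nerves acts on beta-adrenergic receptors and raises cAMP, which induces UCP1, the deiodinase DIO2 and the coactivator PGC-1alpha, while PRDM16 directs precursor cells to the brown fate. Brown fat surrounds the thoracic aorta of mice as part of the perivascular fat.

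To look for cAMP response elements near the start sites, promoters were taken from the RefSeq table of assembly GRCm38.p6. It holds 250 bases before and 50 bases from the start site on, and 7 of the 10 genes matched. The promoters of Dio2, Ppargc1a and Prdm16 are printed because these genes had lower signals in both ApoE−/− groups than in B6 aortas, and that of Ucp1 because no difference was called for it. They lie at chr12:90738989-90739288 on the minus strand for Dio2, chr5:51567676-51567975 on the minus strand for Ppargc1a, chr4:154636824-154637123 on the minus strand for Prdm16 and chr8:83290098-83290397 on the plus strand for Ucp1. Each is written in the direction of its gene. Capitals mark the cAMP response element TGACGTCA and its half-site TGACG, searched on both strands.
Dio2: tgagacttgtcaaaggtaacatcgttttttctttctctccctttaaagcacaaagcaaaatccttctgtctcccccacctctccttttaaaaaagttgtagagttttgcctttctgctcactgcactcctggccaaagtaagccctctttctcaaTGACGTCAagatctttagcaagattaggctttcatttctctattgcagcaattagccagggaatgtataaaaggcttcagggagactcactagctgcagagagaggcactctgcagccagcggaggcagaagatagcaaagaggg
Ppargc1a: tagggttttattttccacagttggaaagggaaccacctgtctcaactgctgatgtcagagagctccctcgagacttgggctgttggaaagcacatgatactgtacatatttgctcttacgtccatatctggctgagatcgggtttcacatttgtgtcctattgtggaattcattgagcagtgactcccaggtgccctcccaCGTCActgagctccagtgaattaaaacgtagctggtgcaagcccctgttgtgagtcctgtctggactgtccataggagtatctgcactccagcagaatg
Prdm16: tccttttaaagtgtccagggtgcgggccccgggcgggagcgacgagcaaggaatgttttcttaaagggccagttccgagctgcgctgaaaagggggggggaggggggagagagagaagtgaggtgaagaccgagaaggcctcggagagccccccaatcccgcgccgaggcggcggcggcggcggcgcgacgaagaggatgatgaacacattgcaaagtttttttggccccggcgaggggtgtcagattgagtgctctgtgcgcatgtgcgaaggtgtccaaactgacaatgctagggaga
Ucp1: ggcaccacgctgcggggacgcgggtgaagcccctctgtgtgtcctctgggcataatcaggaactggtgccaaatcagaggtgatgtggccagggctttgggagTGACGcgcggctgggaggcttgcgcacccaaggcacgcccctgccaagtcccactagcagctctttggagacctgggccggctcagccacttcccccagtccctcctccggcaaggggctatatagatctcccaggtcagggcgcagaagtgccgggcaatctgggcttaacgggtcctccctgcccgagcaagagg
The Dio2 promoter held the full element, a palindrome that contains overlapping half-sites of both strands, at positions −95 to −88 from the start site. The Ppargc1a promoter held a half-site on the reverse strand, printed as CGTCA, at −49 to −45. The Ucp1 promoter held a half-site at −147 to −143. No match was found in the Prdm16 promoter, and 3 of the 7 promoters held at least 1 half-site. The full element was present in 1.79% and the half-site in 20.8% of 32851 RefSeq promoters of this length, so the half-site alone is common. Of other motifs searched, the TATA box TATAAA was found in the Dio2 promoter at −30 to −25 and, past the start site, in that of Cox8b at 5 to 10, and the nuclear receptor half-site AGGTCA in the Ucp1 promoter at −14 to −9. They were present in 13.6% and 16.3% of all promoters. A match describes letters in this window and no binding was measured. Elements farther from the start site were not searched, so the genes cannot be compared for them.

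Signal intensities are linear values scaled per array by the authors and cannot be set against each other between probe sets. A floor of 20 was applied before taking log2, and a probe set was tested with limma when its mean signal intensity was at least 100 in at least 1 group, which left 17909 probe sets. An adjusted p (Benjamini-Hochberg over these) under 0.05 was a call. Of the 19 probe sets, 14 were tested and stood for 8 genes. The other 5 were both Zic1 probe sets, 2 of the 4 for Prdm16 and 1 of the 3 for Dio2, with signal intensities of 0.657 to 89.5. At the limit, Prdm16 probe set 1440745_at was left out with a highest group mean of 87.8, and 1429308_at was tested with one of 190. With 2 arrays per group, the smallest two-sided p of an exact test is 0.333, and the calls depend on a spread pooled by limma over probe sets and over the 3 groups. The labels do not say whether both pools of a group came from different animals, and the p-values measure only the spread between these arrays.

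The mean signal intensity was 305 to 319 on the 6 arrays, and Apoe was 40.5 to 93.2 on the 4 ApoE−/− arrays, against 5209 and 5432 on the B6 arrays. The poly-A controls that monitor labelling (dap, lys, phe and thr) were 2.62- to 4.11-fold lower on untreated than on B6 arrays and 2.21- to 3.32-fold lower on VitE than on B6 arrays. The ratio of 3' to 5' signal of Gapdh, a sign of RNA integrity, was 1.15 and 1.24 on VitE, 1.03 and 1.06 on untreated and 1.35 and 1.34 on B6 arrays. That of beta-actin was 1.64 and 1.64 on VitE, 1.78 and 1.88 on untreated and 2.01 and 2.06 on B6 arrays, so B6 was highest in both ratios and the ApoE−/− groups changed places. The 18S rRNA controls were 2.11- to 3.97-fold lower on VitE than on B6 arrays and 4.08- to 7.14-fold lower on untreated than on B6 arrays. The part of RNA quality in the results was not tested. A labelling batch and the difference of ApoE−/− from B6 mice cannot be told apart, and the same holds for the separate deposition of the VitE arrays. VitE array 1 read lower than array 2 for 398 (85.8%) of 464 other bright probe sets (mean of 5000 or more), with a median ratio of array 2 to array 1 of 1.15. The corresponding ratio was 1.02 for the untreated and 1.01 for the B6 arrays.

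Ucp1, Cidea and Cox8b, all made in brown adipocytes, were bright on all 6 arrays and did not pass the test in any comparison. Ucp1, the uncoupling protein itself, had signal intensities of 6371 and 7911 in VitE, 7582 and 7557 in untreated and 7715 and 7707 in B6 aortas. The untreated and B6 arrays lay within a narrow band, and the VitE arrays lay on both sides of it. The log2 fold change was −0.09 for VitE against untreated aortas (95% confidence interval −0.33 to 0.15, adjusted p = 0.58, limma), which allows 0.793- to 1.11-fold. It was −0.03 for untreated against B6 (−0.27 to 0.22, adjusted p = 0.86) and −0.12 for VitE against B6 aortas (−0.36 to 0.12, adjusted p = 0.39). Without VitE array 2, Ucp1 was lower in VitE than in untreated aortas (−0.25, adjusted p = 0.0086) and lower than in B6 aortas (−0.28, adjusted p = 0.0020), and without array 1 the difference from untreated aortas was 0.06.

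Cidea, a lipid droplet protein that promotes droplet fusion in brown adipocytes, had signal intensities of 7453 and 9043 in VitE, 7890 and 8158 in untreated and 9516 and 9220 in B6 aortas. Both B6 arrays lay above all ApoE−/− arrays. The log2 fold change was −0.22 for untreated against B6 (95% confidence interval −0.46 to 0.01, adjusted p = 0.11, limma), −0.19 for VitE against B6 (−0.42 to 0.04, adjusted p = 0.16) and 0.03 for VitE against untreated aortas (−0.20 to 0.27, adjusted p = 0.85). Leaving out VitE array 1 or array 2 gave a call for untreated against B6 aortas (adjusted p = 0.0024 and 0.0025), with the same log2 fold change. Without array 2, Cidea was also called lower in VitE than in B6 aortas (−0.33, adjusted p = 0.0017), and without array 1 it was called higher than in untreated aortas (0.17, adjusted p = 0.0329). With each array centred on the median of all probe sets, Cidea was called lower in untreated (−0.29, adjusted p = 0.0408) and in VitE (−0.34, adjusted p = 0.0193) than in B6 aortas. With quantile normalization these values were −0.09 (adjusted p = 0.20, limma) and −0.13 (adjusted p = 0.06), neither of them called.

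Cox8b, a subunit of cytochrome c oxidase of brown fat and striated muscle, had signal intensities of 8370 and 10071 in VitE, 9186 and 9236 in untreated and 10192 and 10224 in B6 aortas. Both B6 arrays were again the highest. The log2 fold change was −0.15 for untreated against B6 (95% confidence interval −0.37 to 0.08, adjusted p = 0.25, limma), −0.15 for VitE against B6 (−0.38 to 0.07, adjusted p = 0.24) and −0.00 for VitE against untreated aortas (−0.23 to 0.22, adjusted p = 0.98). The direction of the last value hung on 1 array, with 0.13 (adjusted p = 0.0460) without VitE array 1 and −0.14 (adjusted p = 0.0461) without array 2. Cox8b was called lower in VitE than in B6 aortas with array 2 left out (−0.29, adjusted p = 0.0015) and with arrays centred on the median of all probe sets (−0.31, adjusted p = 0.0289). The untreated against B6 value was called with either of these arrays left out (adjusted p = 0.0059 and 0.0063). With quantile normalization, Cox8b gave 0.04 in untreated against B6 aortas (adjusted p = 0.49, limma) and −0.11 in VitE against B6 aortas (adjusted p = 0.10). The direction of the untreated against B6 value thus depended on the scaling. Its counterpart Cox8a is made in most tissues and had no call. Cox8a gave log2 fold changes of −0.04 in VitE against untreated, 0.01 in untreated against B6 and −0.03 in VitE against B6 aortas.

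The gap between the VitE arrays was alike for these 3 genes, with a ratio of array 2 to array 1 of 1.24 for Ucp1, 1.21 for Cidea and 1.20 for Cox8b. It had the direction of the other bright probe sets, whose median ratio was 1.15, and its part in the spread of these genes was not tested. Those other bright probe sets had a median log2 fold change of −0.12 in untreated against B6 and −0.05 in VitE against B6 aortas. The part of this shift in the Cidea and Cox8b values was not tested. The 5 genes most like Ucp1 over the 6 arrays, by the root mean square difference of centred log2 values, were Ccz1, Txndc9, Igfbp4, Hadhb and Tkt, with differences of 0.0225 to 0.0293. All 5 also read lower on VitE array 1 than on array 2.

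**Figure D1:**
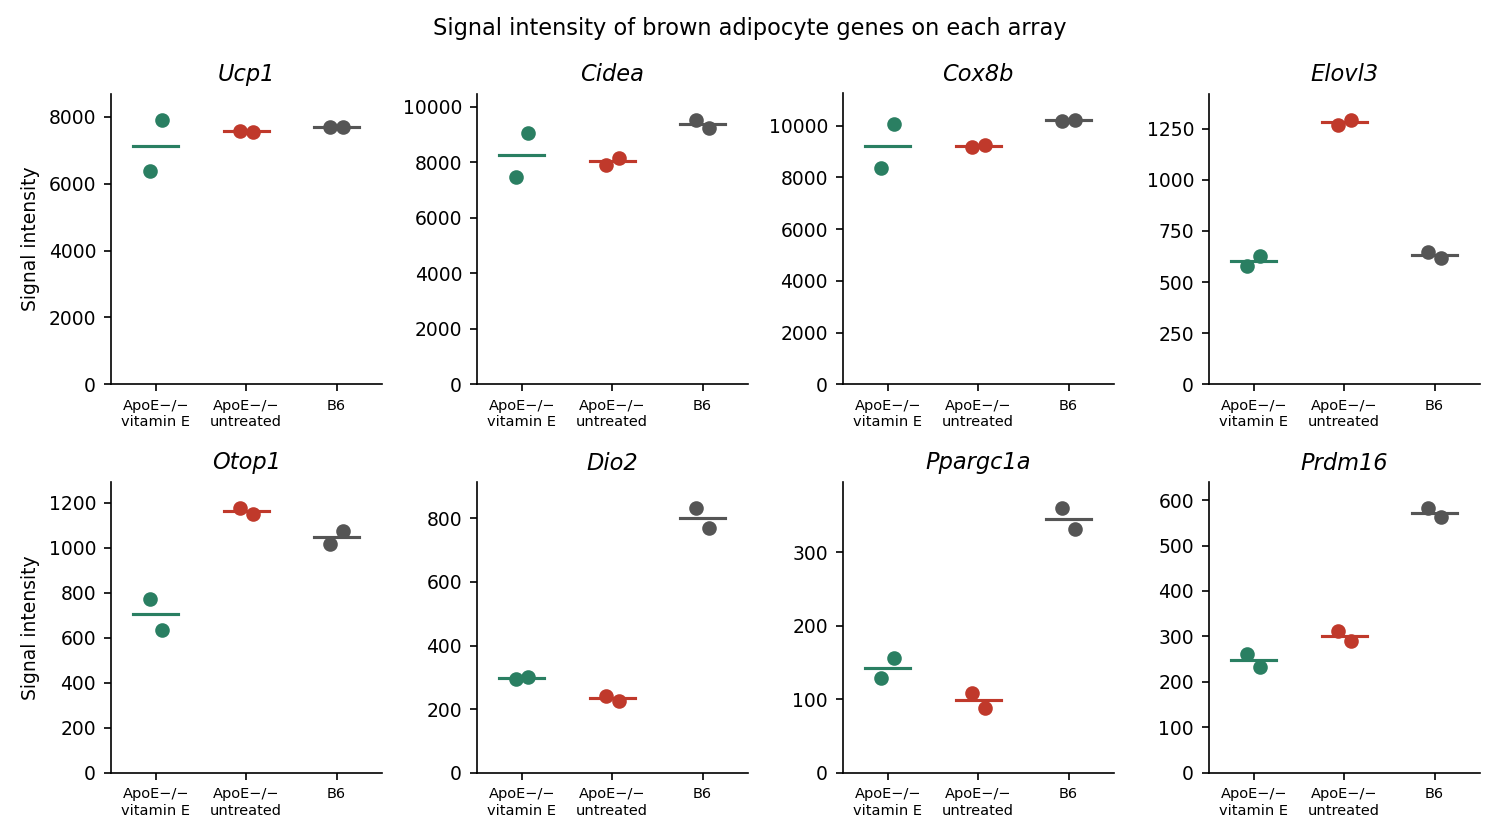
Signal intensity (linear axis from 0) of 8 genes in VitE (ApoE−/− with vitamin E), untreated (ApoE−/−) and B6 aortas. Points are single arrays, the line is the mean of 2 arrays, and each gene is shown by its probe set of highest mean. Ucp1, Cidea and Cox8b differ little between the groups, Elovl3 stands out in untreated aortas, Otop1 is lowest in VitE aortas, and Dio2, Ppargc1a and Prdm16 are highest in B6 aortas.

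Elovl3 set the untreated group apart from both others. It encodes an elongase of very long chain fatty acids that is strongly induced in brown fat of mice in the cold. Signal intensities were 578 and 628 in VitE, 1269 and 1293 in untreated and 646 and 619 in B6 aortas. VitE and B6 arrays overlapped, and both untreated arrays lay above all of them. Elovl3 was 2.13-fold lower in VitE than in untreated aortas (log2 fold change −1.09, SE 0.07, adjusted p = 1.9e-04, limma). It was 2.03-fold higher in untreated than in B6 aortas (1.02, SE 0.07, adjusted p = 5.8e-05). The comparison of VitE with B6 aortas gave −0.07 (95% confidence interval −0.23 to 0.10, adjusted p = 0.46), and the untreated arrays are shared by the first 2 comparisons. Both calls were kept in all limma alternatives and with any array left out.

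Of the other elongases, Elovl4 and Elovl7 ran opposite to Elovl3. Elovl4, which makes very long chain fatty acids of skin and retina, had signal intensities of 208 and 209 in VitE, 78.3 and 62.1 in untreated and 184 and 166 in B6 aortas, so untreated arrays were the lowest. Elovl4 gave log2 fold changes of 1.58 in VitE against untreated aortas (adjusted p = 0.0010, limma) and −1.33 in untreated against B6 aortas (adjusted p = 6.1e-04). Elovl7 gave 1.08 and −1.38 in the same comparisons (adjusted p = 0.0077 and 8.3e-04). Elovl6, which extends palmitate and was the brightest of them, fell by 0.58 on the log2 scale in VitE against untreated aortas (adjusted p = 0.0018) and had −0.16 in untreated against B6 aortas (adjusted p = 0.09).

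Markers of cardiac muscle, like Elovl3, had their highest sum in untreated aortas. The summed signal intensity of the 19 cardiac genes with a probe set was 40701 and 44586 in VitE, 73788 and 74336 in untreated and 40349 and 39712 in B6 aortas. Of the 18 tested, 17 were called higher and 1 lower in untreated than in B6 aortas. In VitE against untreated aortas 16 were called lower and 0 higher. In VitE against B6 aortas 7 were called higher and 3 lower. In this order, the calls are 100%, 88.9% and 55.6% of the cardiac genes tested. Of all genes tested, 41.9%, 15.8% and 42.8% were called in these comparisons. Acot11, a brown fat thioesterase, was also highest in untreated aortas. Signal intensities of Acot11 were 1286 and 1172 in VitE, 2994 and 3159 in untreated and 1154 and 1204 in B6 aortas. The 5 genes most like Elovl3 over the 6 arrays, by the measure used for Ucp1, were Pom121, Myoz2, Ankrd1, Acly and Anapc11. Their differences were 0.0647 to 0.0863. The part of cardiac tissue in the Elovl3 signal was not tested.

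Otop1, a proton channel made in brown fat, was lowest in VitE aortas. Signal intensities were 774 and 634 in VitE, 1175 and 1151 in untreated and 1017 and 1075 in B6 aortas. The 3 groups did not overlap. Otop1 was 1.66-fold lower in VitE than in untreated aortas (log2 fold change −0.73, SE 0.10, adjusted p = 0.0037, limma) and 1.49-fold lower than in B6 aortas (−0.58, SE 0.10, adjusted p = 0.0032). Untreated against B6 aortas gave 0.15 (95% confidence interval −0.07 to 0.38, adjusted p = 0.24). Without the filter on low signals both calls were lost (adjusted p = 0.09 and 0.07).

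The probe set shared by Gm44502, Cpt1b and Chkb covers the muscle and brown fat isoform of the enzyme that brings fatty acids into mitochondria, together with a choline kinase. It had signal intensities of 1008 and 1095 in VitE, 1295 and 1302 in untreated and 1113 and 1115 in B6 aortas, highest in the untreated group. It was called lower in VitE than in untreated aortas (log2 fold change −0.31, adjusted p = 0.0219, limma) and higher in untreated than in B6 aortas (0.22, adjusted p = 0.0309). Both calls were lost when any untreated or B6 array was left out, without the filter and without the variance trend. The first was also lost with only the compared groups in the fit, and the second with either median centring (adjusted p of 0.06 to 0.13 and 0.07 to 0.16). The share of each gene in this signal is unknown, and it is not counted below. Cpt1a, the isoform of liver and most other tissues, ran the other way, with 0.47 in VitE against untreated (adjusted p = 0.0118) and −0.39 in untreated against B6 aortas (adjusted p = 0.0088).

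Dio2, Ppargc1a and Prdm16 were lower in both ApoE−/− groups than in B6 aortas. Dio2 converts thyroxine to the active hormone triiodothyronine inside the cell. Its probe set 1418937_at had signal intensities of 293 and 300 in VitE, 241 and 226 in untreated and 831 and 769 in B6 aortas. The B6 arrays were far above the rest, and the VitE arrays lay above the untreated arrays. It was 3.42-fold lower in untreated than in B6 aortas (log2 fold change −1.77, SE 0.09, adjusted p = 1.2e-05, limma) and 2.69-fold lower in VitE than in B6 aortas (−1.43, SE 0.09, adjusted p = 3.6e-05). In VitE against untreated aortas it was 1.27-fold higher (0.34, SE 0.09, adjusted p = 0.0367). This last call was lost in several alternatives, and when any array but VitE array 1 was left out, with adjusted p of up to 0.19.

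The second tested probe set, 1426081_a_at, had signal intensities of 86.6 and 121 in VitE, 81.7 and 66.3 in untreated and 259 and 265 in B6 aortas. Here too the B6 arrays did not overlap with the others. The log2 fold change was −1.83 in untreated (adjusted p = 3.9e-04, limma) and −1.36 in VitE (adjusted p = 0.0016), both against B6 aortas. In VitE against untreated aortas it was 0.47 and not called (adjusted p = 0.14), but was called without VitE array 1 (0.71, adjusted p = 0.0387). The third, 1418938_at, stayed between 21.3 and 41.0 on all arrays and was not tested. Whether the cAMP response element of the Dio2 promoter acts in these aortas was not measured.

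Ppargc1a encodes PGC-1alpha, the coactivator that drives mitochondrial biogenesis and Ucp1 transcription. Its brightest probe set, 1460336_at, had signal intensities of 129 and 156 in VitE, 109 and 88.4 in untreated and 359 and 331 in B6 aortas. All 5 probe sets were highest on the B6 arrays, with no overlap with any ApoE−/− array. Across them, signal intensities were 83.5 to 156 in VitE, 88.4 to 163 in untreated and 195 to 359 in B6 aortas. All 5 were called lower in untreated than in B6 aortas, by log2 fold changes of −0.70 to −1.81 (1.62- to 3.52-fold lower, highest adjusted p = 0.0464, limma). All 5 were also called lower in VitE than in B6 aortas, by −0.96 to −1.28 (1.94- to 2.43-fold lower, highest adjusted p = 0.0194). Probe set 1434099_at, the noisiest with 140 and 83.5 in VitE aortas, lost the call against B6 when any untreated or B6 array was left out (untreated, adjusted p of up to 0.23) and when VitE array 2 or B6 array 2 was left out (VitE, adjusted p = 0.07 and 0.13). It also lost both calls without the filter (adjusted p = 0.30 and 0.20) and the untreated call without the variance trend (0.07), and 1434100_x_at lost its untreated call without the filter (0.08).

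Between VitE and untreated aortas the 5 probe sets of Ppargc1a disagreed in sign, from −0.31 to 0.53, and 0 were called in limma (1 had an unadjusted p under 0.05). Probe set 1460336_at had the highest of these values (0.53, 95% confidence interval 0.17 to 0.90, adjusted p = 0.06, limma) and was called without VitE array 1 (0.67, adjusted p = 0.0386), while 1434100_x_at was then called in the other direction (−0.54, adjusted p = 0.0461). The part of the transcript that each probe set detects was not examined. The related coactivator gene Ppargc1b had signal intensities of 1296 and 1196 in VitE, 1007 and 922 in untreated and 1558 and 1595 in B6 aortas. Ppargc1b gave log2 fold changes of 0.37 in VitE against untreated (adjusted p = 0.0165), −0.71 in untreated against B6 (adjusted p = 3.3e-04) and −0.34 in VitE against B6 aortas (adjusted p = 0.0087).

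Prdm16, the regulator of brown adipocyte fate, was lower in both ApoE−/− groups than in B6 aortas in both tested probe sets. Probe set 1440870_at had signal intensities of 261 and 233 in VitE, 312 and 289 in untreated and 582 and 563 in B6 aortas. Probe set 1429308_at had 98.8 and 84.8 in VitE, 125 and 129 in untreated and 214 and 166 in B6 aortas. In both, the 3 groups did not overlap, with VitE arrays the lowest, although VitE against untreated aortas was not called. The first was 1.91-fold lower in untreated than in B6 aortas (log2 fold change −0.93, SE 0.10, adjusted p = 3.3e-04, limma) and 2.32-fold lower in VitE than in B6 aortas (−1.21, SE 0.10, adjusted p = 1.2e-04). The second gave −0.57 (adjusted p = 0.0307) and −1.04 (adjusted p = 0.0026). The call at −0.57 was lost when untreated array 1, untreated array 2 or B6 array 1 was left out (adjusted p = 0.12, 0.10 and 0.18) and without the filter (0.15).

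Between VitE and untreated aortas, the log2 fold changes of these Prdm16 probe sets were −0.28 (95% confidence interval −0.51 to −0.06, adjusted p = 0.09, limma) and −0.47 (−0.87 to −0.08, adjusted p = 0.10), neither of them called. Without VitE array 1 the first was called (−0.36, adjusted p = 0.0456). The probe sets that were not tested disagreed with each other. Signal intensities of 1440745_at were 34.0 and 56.3 in VitE, 47.0 and 64.7 in untreated and 89.5 and 86.1 in B6 aortas, the order of the tested probe sets, while those of 1429309_at were 44.2 and 35.4, 36.6 and 28.7, and 13.7 and 32.9 in the same groups. Mecom, the closest relative of Prdm16, gave −0.38 in VitE against untreated (adjusted p = 0.0316), −0.23 in untreated against B6 (adjusted p = 0.08) and −0.61 in VitE against B6 aortas (adjusted p = 0.0019).

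Zic1, a transcription factor gene that marks interscapular brown fat in mice, had no signal intensity above 20.7 in either probe set on any array. Probe set 1423477_at had 14.5 and 11.3 in VitE, 8.27 and 12.9 in untreated and 12.1 and 20.7 in B6 aortas. These values are near or under the floor of 20, so no difference could be tested. In these bulk samples, fewer brown adipocytes, less RNA of a gene per brown adipocyte and changes in other cells cannot be told apart.

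**Figure D2:**
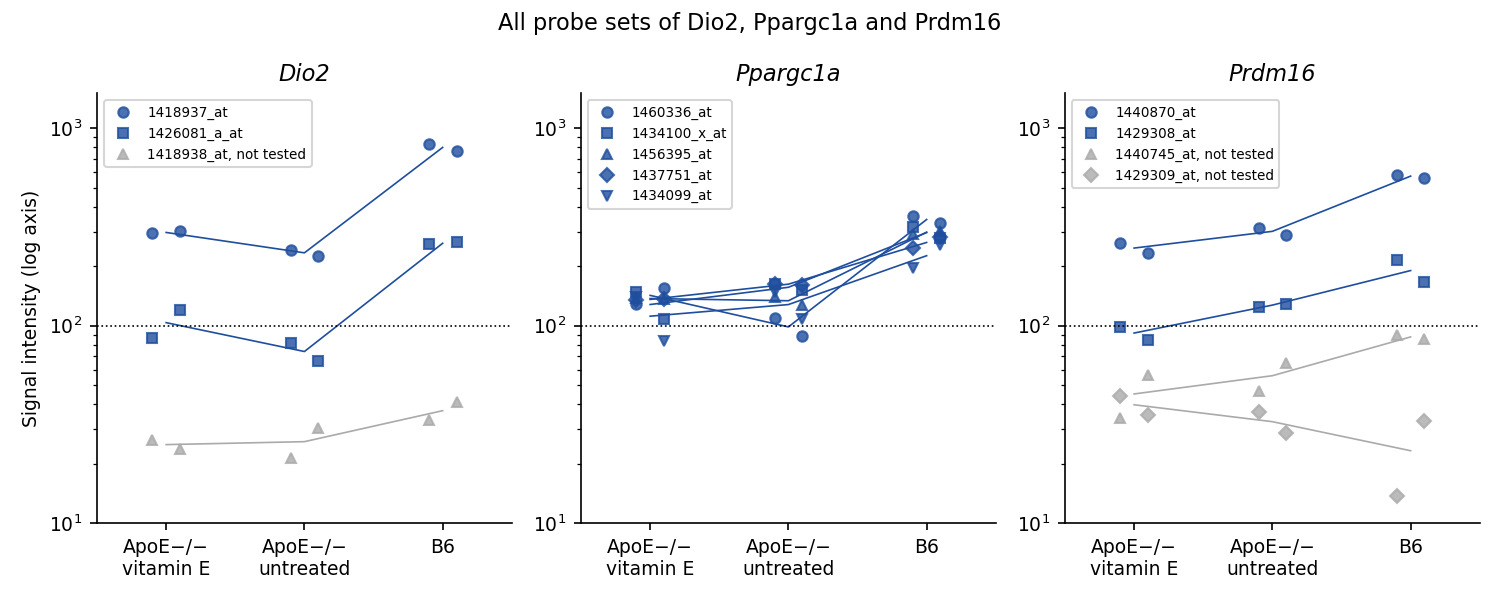
Signal intensity (log axis) of every probe set of Dio2, Ppargc1a and Prdm16 in VitE, untreated and B6 aortas. Points are single arrays, lines join group means, grey marks probe sets that were not tested, and the dotted line is the limit of 100. All tested probe sets are highest on both B6 arrays, and Ppargc1a probe sets cross each other between the ApoE−/− groups.

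Counted over the 14 tested probe sets, 3 were called in VitE against untreated aortas (1 higher, 2 lower), where 15.5% of all 17909 were called (8.52% higher, 6.99% lower). In untreated against B6 aortas 10 were called (1 higher, 9 lower), where 40.8% of all were called (21.7% higher, 19.1% lower). In VitE against B6 aortas 10 were called lower and 0 higher, where 41.1% of all were called (21.9% higher, 19.2% lower). The 9 lower calls of untreated aortas stand for 3 genes, since Ppargc1a has 5 probe sets and Dio2 and Prdm16 have 2 each. With 1 probe set per gene, 3, 4 and 4 of 8 genes were called in these comparisons. Over the 10646 genes whose brightest probe set was tested, 15.8% were called in VitE against untreated (8.18% higher, 7.65% lower), 41.9% in untreated against B6 (21.2% higher, 20.8% lower) and 42.8% in VitE against B6 aortas (21.1% higher, 21.7% lower). Among the 8 genes, the calls in the same order were 1 higher and 2 lower, 1 higher and 3 lower, and 0 higher and 4 lower, or 37.5%, 50% and 50% of genes. Groups did not overlap for 9, 14 and 12 of the 14 probe sets, which compares with 58.9%, 76.8% and 71.5% of all. The median log2 fold change was −0.16, −0.76 and −1.05 over the 14 probe sets, −0.05, −0.19 and −0.38 over the 8 genes, and 0.00, 0.03 and 0.02 over all probe sets tested. A filter that asks for a mean of at least 100 in only 1 group can favour probe sets that differ, and without it 1, 7 and 8 of the 14 were called.

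**Figure D3:**
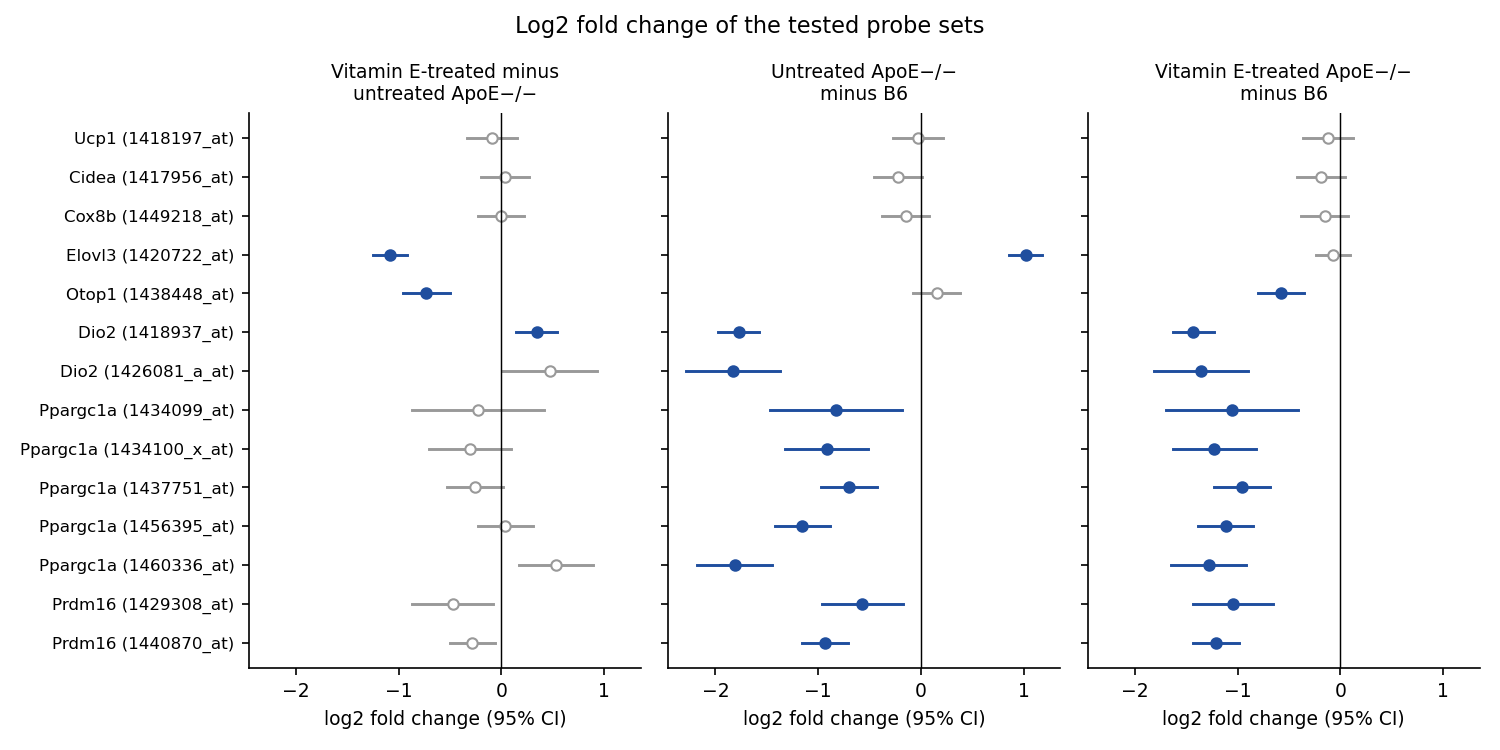
Log2 fold change (x axis) with its 95% confidence interval for the 14 tested probe sets in the 3 comparisons. Filled blue points passed an adjusted p of 0.05 in limma and open grey points did not. Ucp1, Cidea and Cox8b lie near 0 in all panels, Elovl3 is −1.09, 1.02 and −0.07 from left to right, and all Dio2, Ppargc1a and Prdm16 probe sets lie below 0 in both comparisons with B6 aortas.

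Other genes of brown fat also moved in both directions. Their counts, and those of the lists that follow, stand against the shares of all genes given above. Of 24 entries in a list of other brown adipocyte genes, 20 were tested with 1 probe set per gene. In VitE against untreated aortas 3 were called higher and 7 lower (median log2 fold change −0.16), in untreated against B6 aortas 4 higher and 9 lower (−0.19), and in VitE against B6 aortas 0 higher and 10 lower (−0.40). Gpd2, the mitochondrial glycerol phosphate dehydrogenase, had signal intensities of 4064 and 4534 in VitE, 5309 and 5503 in untreated and 6061 and 6408 in B6 aortas. It was called lower in VitE than in untreated (−0.33, adjusted p = 0.0289, limma) and than in B6 aortas (−0.54, adjusted p = 0.0016).

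Some brown fat genes had the order of Dio2, and Acot11 was highest in untreated aortas like Elovl3. Slc27a2, a fatty acid transporter and acyl-CoA synthetase, had signal intensities of 627 and 554 in VitE, 352 and 353 in untreated and 1430 and 1489 in B6 aortas, with a log2 fold change of −2.05 in untreated against B6 aortas (adjusted p = 4.6e-06, limma). Slc4a4, a sodium bicarbonate cotransporter, gave 0.58 in VitE against untreated and −1.93 in untreated against B6 aortas (adjusted p = 0.0051 and 7.1e-06). Acot11, whose values are given beside Elovl3, gave −1.32 and 1.38 (adjusted p = 7.7e-05 and 1.5e-05).

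Among genes of all adipocytes, lower calls outnumbered higher calls. Of 21 tested, 11 were called lower and 4 higher in untreated against B6 aortas (median log2 fold change −0.33), and 10 lower and 2 higher in VitE against B6 aortas (−0.25). In VitE against untreated aortas 5 were lower and 1 higher (−0.10). Their summed signal intensity was 88218 and 101161 in VitE, 94874 and 98219 in untreated and 113504 and 114157 in B6 aortas, so the B6 arrays were the highest. Fabp4, the adipocyte fatty acid binding protein, gave 0.09, −0.21 and −0.12 in VitE against untreated, untreated against B6 and VitE against B6 aortas, with no call. Pck1, a key enzyme of glyceroneogenesis, rose by 0.89 on the log2 scale in VitE against untreated aortas (adjusted p = 4.8e-04, limma) and gave −1.33 in untreated against B6 aortas (adjusted p = 2.2e-05). Lep, the hormone leptin of white fat, ran the other way, with −0.82 and 1.29 (adjusted p = 0.0046 and 1.8e-04).

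Of the beige adipocyte genes, which mark inducible thermogenic cells in white fat, 5 of 9 entries were tested. In limma 0 were called in VitE against untreated aortas (2 had an unadjusted p under 0.05). In untreated against B6 aortas 2 were called lower and 0 higher, and in VitE against B6 aortas 2 lower and 1 higher. Slc36a2, an amino acid transporter, had signal intensities of 2192 and 2204 in VitE, 2294 and 2230 in untreated and 2831 and 2715 in B6 aortas. It was lower in untreated than in B6 aortas (−0.29, adjusted p = 0.0068).

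Beta-adrenergic signalling acts upstream of Ucp1 and Dio2. Of 15 genes of beta-adrenergic and cAMP signalling, 2 were called higher and 2 lower in VitE against untreated aortas (median log2 fold change −0.08). In untreated against B6 aortas 2 were higher and 5 lower (−0.19), and in VitE against B6 aortas 2 higher and 5 lower (−0.21). The 4, 7 and 7 calls are 26.7%, 46.7% and 46.7% of these genes, and for the comparisons with B6 aortas this is near the 41.9% and 42.8% of all genes. Gnas, the stimulatory G protein subunit, had signal intensities of 6801 and 8026 in VitE, 7334 and 7646 in untreated and 8514 and 8575 in B6 aortas, with no call. Pde3b, a phosphodiesterase that degrades cAMP in adipocytes, had 2060 and 1952 in VitE, 1893 and 1926 in untreated and 3531 and 3262 in B6 aortas. Its signal intensity was lower in untreated than in B6 aortas (−0.83, adjusted p = 1.1e-04, limma). Prkaca, a catalytic subunit of protein kinase A, was lower in VitE than in untreated aortas (−0.34, adjusted p = 0.0235).

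Of 7 tested genes of thyroid hormone handling, the pathway that Dio2 feeds, 0 were called in VitE against untreated aortas in limma (2 had an unadjusted p under 0.05), 2 were called lower in untreated against B6 aortas and 1 in VitE against B6 aortas. Thra, the main thyroid hormone receptor of heart and brain, gave −0.19, 0.03 and −0.16 in VitE against untreated, untreated against B6 and VitE against B6 aortas without a call. Med1, a coactivator of nuclear receptors, was lower in untreated than in B6 aortas (−0.51, adjusted p = 0.0023) and in VitE than in B6 aortas (−0.29, adjusted p = 0.0227).

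Fatty acid oxidation is the fuel supply of uncoupled respiration. Of 16 genes tested, 0 were called higher and 1 lower in VitE against untreated (median log2 fold change −0.07), 1 higher and 7 lower in untreated against B6 (−0.19), and 1 higher and 9 lower in VitE against B6 aortas (−0.26). These are 6.25%, 50% and 62.5% of the genes, where 15.8%, 41.9% and 42.8% of all genes were called. Etfdh, which passes electrons from fatty acid oxidation to ubiquinone, had signal intensities of 1885 and 1970 in VitE, 2135 and 2257 in untreated and 3327 and 3294 in B6 aortas. It was lower in untreated than in B6 aortas (−0.59, adjusted p = 3.7e-04, limma). Hadhb, a subunit of the trifunctional protein and among the genes most like Ucp1, gave −0.03, −0.07 and −0.10 in VitE against untreated, untreated against B6 and VitE against B6 aortas, with no call.

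**Figure D4:**
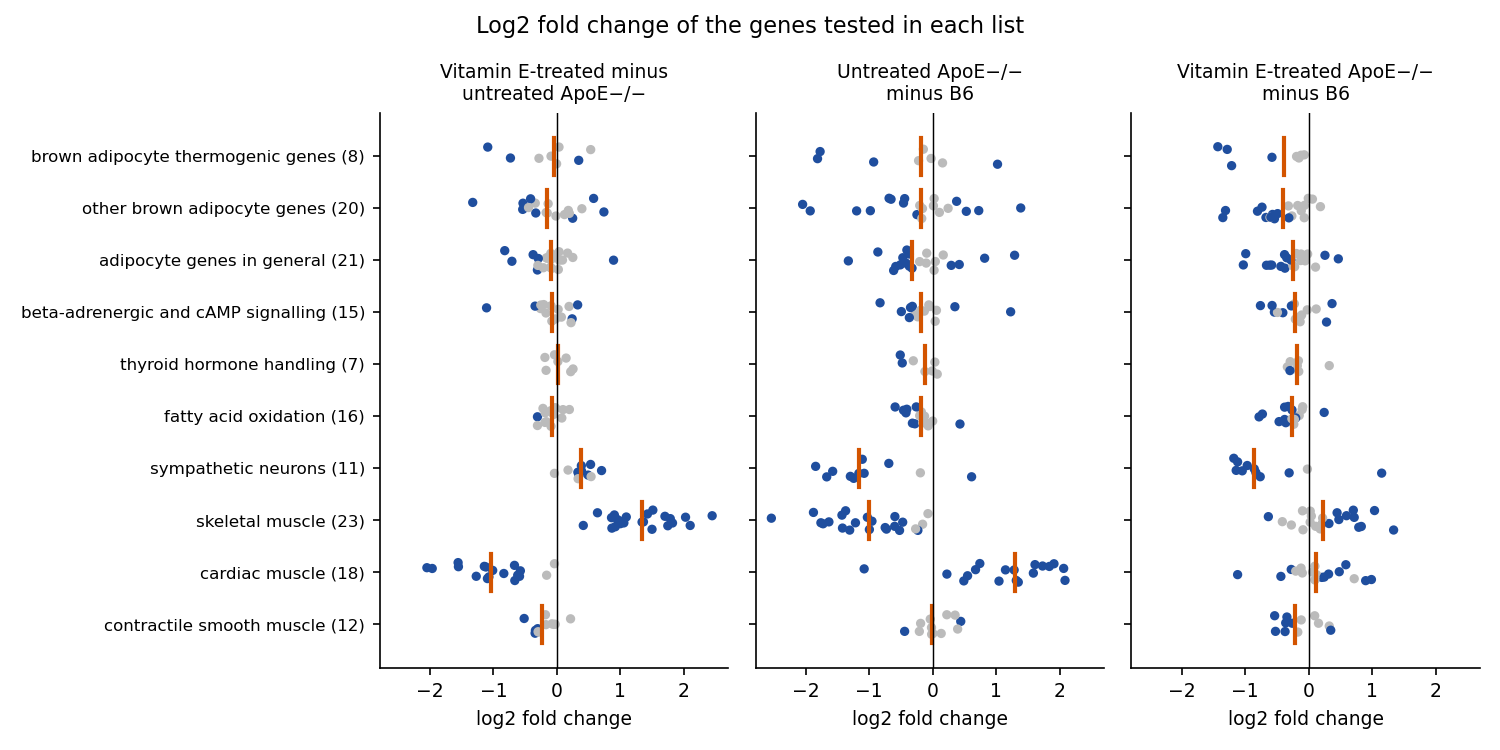
Log2 fold change of the tested genes of 10 lists in the 3 comparisons, 1 probe set per gene, with the number of genes in brackets. Blue points passed an adjusted p of 0.05 in limma, grey points did not, and the orange line is the median. The thermogenic genes spread to both sides of 0 in untreated against B6 aortas (median −0.19), while skeletal muscle (−0.998), cardiac muscle (1.30) and sympathetic neuron genes (−1.16) lie mostly on 1 side.

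Markers of sympathetic neurons, whose noradrenaline activates brown fat, had the same order of groups as Dio2. Their summed signal intensity over the 11 genes tested was 6518 and 6970 in VitE, 5079 and 4994 in untreated and 12893 and 12514 in B6 aortas. Of the 11, 7 were called higher and 0 lower in VitE against untreated aortas, 1 higher and 9 lower in untreated against B6 aortas, and 1 higher and 9 lower in VitE against B6 aortas. Slc6a2, the noradrenaline transporter, had 1820 and 1940 in VitE, 1332 and 1272 in untreated and 3940 and 3818 in B6 aortas. The part of nerve supply in the Dio2, Ppargc1a and Prdm16 signals was not tested.

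Skeletal muscle, which also expresses Ppargc1a, Dio2 and Cox8b, moved as well. The summed signal intensity of its 23 markers was 78068 and 89632 in VitE, 39234 and 38849 in untreated and 68514 and 67944 in B6 aortas. All 23 were called higher in VitE than in untreated aortas (median log2 fold change 1.34), and 20 were called lower in untreated than in B6 aortas (−0.998). In VitE against B6 aortas 10 were higher and 1 lower (0.22). The 12 contractile smooth muscle genes of the aortic wall had summed signal intensities of 23239 and 24446 in VitE, 25772 and 26340 in untreated and 27283 and 27871 in B6 aortas. Of the 12 smooth muscle genes, 0 were called higher and 4 lower in VitE against untreated aortas. In untreated against B6 aortas 1 was higher and 1 lower, and in VitE against B6 aortas 1 higher and 6 lower. The part of muscle tissue in these results was not tested.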

How the data were processed

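Aortic RNA was measured on 6 Affymetrix MG430 2.0 arrays, 2 per group in 3 groups. The deposited values are linear signal intensities, 1 per probe set and array, which the authors computed and scaled to a common target per array with GCOS, as the submitters' processing notes and the methods name it. Captopril arrays were not used here. Of 45101 probe sets, 64 array controls were left out of the tests, 34945 had 1 gene symbol, 932 had several and 9160 had none, and RefSeq (GRCm38.p6) held 34741 of those with 1. Array precision is limited by the number of arrays.

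Signal intensities were set to at least 20, log2-transformed and fitted with limma 3.58.1 in R 4.3.3, with 1 mean per group, all 6 arrays and a trend of variance with intensity (degrees of freedom 3 residual, 4.46 prior). Tested were 17909 probe sets, for 10650 gene symbols, with a mean of at least 100 in at least 1 group. Every adjusted p comes from limma, by Benjamini-Hochberg over all tested probe sets. Fold changes are of floored log2 values and understate changes of dim probe sets. The scripts were tested on simulated data. Figures and promoter searches were made with Python 3.11.15 and matplotlib 3.10.9.

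The members and lists were chosen with earlier results of these data known. Named are all probe sets of the members, and of each list the 2 genes of highest mean signal and those of largest change in VitE against untreated or in untreated against B6 aortas, as far as they help the account, plus family counterparts. A list gene is shown by its probe set of highest mean. Settings varied were the normalization (quantile, median centring), the floor (50 or 1), the filter (none, or a mean over the 6 arrays of at least 100), the variance trend (none), the groups in the fit (only those compared), a block for the replicate number, omission of each array in turn, the choice of a single probe set for each gene, and the methods' t-test (p of at most 0.01 and at least 2-fold).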

Additional observations from a re-analysis of the deposited data

How the results depend on the processing

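The main counts of called probe sets among the 14 tested were 3 in VitE against untreated, 10 in untreated against B6 and 10 in VitE against B6 aortas. In the same order, leaving out 1 array gave 2 to 9 (9 without VitE array 1), 8 to 12 and 9 to 12. The methods' t-test at their thresholds gave 1, 5 and 3, and after Benjamini-Hochberg adjustment 0, 5 and 0. With 1 probe set per gene, 3, 4 and 4 of 8 genes were called, since Ppargc1a, Dio2 and Prdm16 then count once. Without the filter, 1, 7 and 8 were called. Over all probe sets, 949, 4494 and 4464 were called without it, against 2777, 7305 and 7368 with it. Both the variance trend and the adjustment then covered more probe sets, and the part of each was not tested. Over all probe sets, leaving out 1 array gave 808 to 3517, 4337 to 8791 and 4353 to 7507, the methods' t-test at their thresholds 179, 768 and 582, after Benjamini-Hochberg adjustment 0, 2156 and 67, and a fit of only the groups compared 1700 in VitE against untreated aortas. Apart from counting 1 probe set per gene, the causes of these differences were not tested. With the replicate number as a block, 2, 10 and 10 of the 14 were called, and the call of Dio2 in VitE against untreated aortas was lost (adjusted p = 0.0546). It changed no other call among them. The labels do not say that equal numbers pair arrays, and the residuals of same-numbered arrays correlated by 0.05, 0.05 and −0.10.

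The log2 fold change of Cox8b in VitE against untreated aortas reversed to 0.13 without VitE array 1 and was −0.14 without VitE array 2, against −0.00. Of 450 further values of the 45 log2 fold changes (shared probe set included), 424 kept their call or lack of a call. Another 19 lost and 7 gained a call, and 0 reversed with a call in either setting. Uncalled values changed sign 11 times, counting omitted arrays. With quantile normalization, Ucp1 went from −0.03 to 0.06 and Cox8b from −0.15 to 0.04 in untreated against B6 aortas. Centring each array on the median of all probe sets, chosen after seeing the data, shifted all log2 fold changes by −0.08, −0.07 and −0.15 in the order above. The share of higher calls then was 33.8%, 43.2% and 31.4%, against 55.0%, 53.1% and 53.3%, and 2, 11 and 12 of the 14 probe sets were called. Dio2 in VitE against untreated aortas lost its call there (0.26, adjusted p = 0.13), and Cidea was then called lower in both ApoE−/− groups and Cox8b in VitE than in B6 aortas. Depth cannot be read from arrays, and probe sets near the floor of 20, such as those of Zic1, carry no order.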
